A study of Rattus norvegicus with 30 samples.

Results

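The comparison set rats fed tofu protein mixed with casein (T10) against rats fed soy protein as their whole protein source (S). It used 10 of the 30 arrays of the study, namely the 5 labelled casein + tofu diet and the 5 labelled soy protein diet, and every array of both diets entered. Each array measured the liver of 1 male Sprague-Dawley rat on a 1-colour Affymetrix array. The rats were bought at 4 weeks of age, kept for 5 days on a commercial diet and then fed the test diets for 14 days, with 200 g/kg protein in every diet. S held 200 g/kg soy protein and no added isoflavone. T10 held 100 g/kg casein and 100 g/kg protein from freeze-dried tofu, which carries its own isoflavones. Of the other diets, C held casein, CI casein with isoflavone, SI soy protein with isoflavone at the tofu level, and T20 tofu as the whole 200 g/kg. T10 and S therefore differed at least in the form of the soy, the amount of soy-derived protein, the presence of casein and isoflavone. These differences cannot be told apart in this comparison.

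Casein and soy protein differ in amino acid make-up, and soy protein is the poorer source of methionine. The liver meets a shortage of an essential amino acid through the transcription factor ATF4, whose targets include asparagine synthetase, and it handles a surplus through amino acid breakdown and the urea cycle. The liver also secretes hepcidin, the hormone that lowers iron entry into blood, makes the acute phase proteins of plasma, and exports sterols into bile through the paired transporter ABCG5/ABCG8.

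Levels are log2 intensities and differences are T10 minus S on that scale, so that a difference of 1 is 2-fold. The ± after a difference is the SE of limma's fit to all 30 arrays, the adjusted p is Benjamini-Hochberg over all tested probe sets, and a gene was called at an adjusted p below 0.05. Each diet had 5 arrays. The labels call them biological replicates. Array medians of the intensity ran from 227.1 to 237.7 in S and from 220.4 to 240.5 in T10, and precision is set by the number of rats. T10 replicates 3, 4 and 5 had GAPDH 3'/5' signal ratios, a measure of RNA integrity and labelling, of 1.58, 1.51 and 1.32. The other T10 arrays had 0.97 and 1.05 and the S arrays 1.06 to 1.25, whereas the actin ratio overlapped (2.35 to 2.85 in T10, 2.31 to 2.78 in S). Without those 3 arrays only 164 probe sets were called (70 higher, 94 lower), from 2 T10 arrays. The part of the GAPDH ratio in the results was not tested beyond the values given here.

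Of 18625 tested probe sets 789 were called (4.24%), 368 higher in T10 (1.98%) and 421 lower (2.26%). Without S replicate 2 the number higher was 237. By gene, 222 of 10699 were higher (2.07%) and 312 lower (2.92%), with each gene read from its brightest tested probe set. Of the 10699 genes 5528 had a difference above 0. The median difference over probe sets was 0.013. A difference of at least 1 was found for 31 called probe sets higher in T10 and 57 lower. The ranges of the 5 arrays did not overlap for 592 of the 789 called probe sets, and for 1017 of all tested ones (5.46%). The comparisons beside it share arrays with this one. T20 against S called 568 probe sets (3.05%), C against S 1351 (7.25%) and T10 against C 60 (0.322%).

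**Figure D1:**
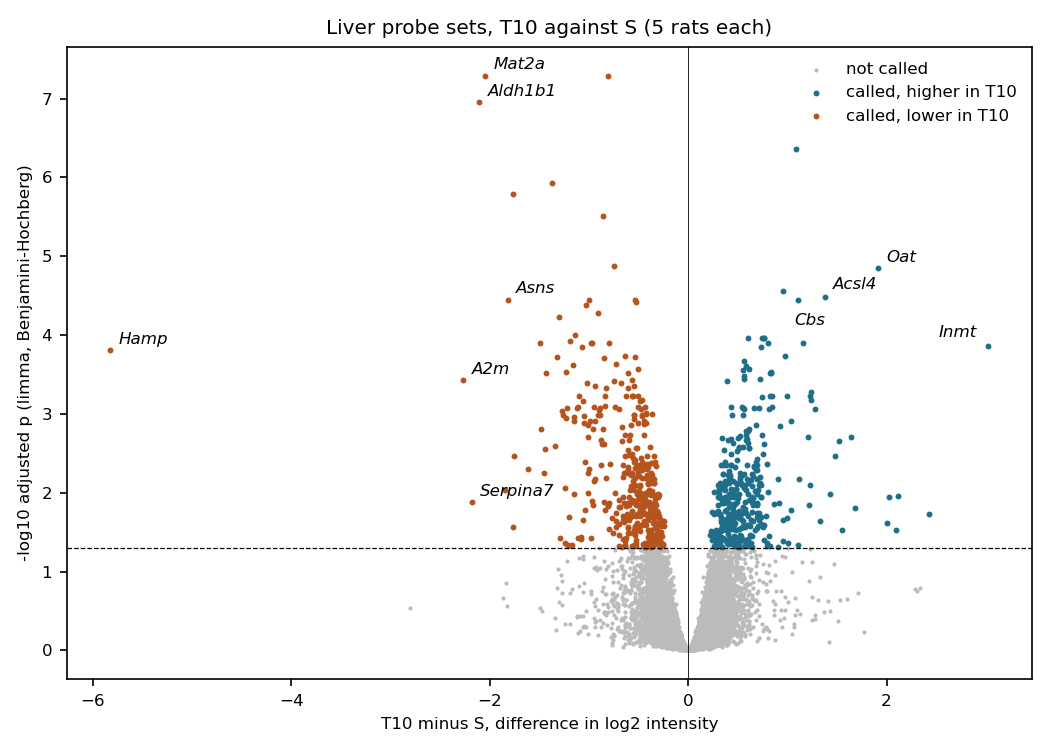
Difference T10 minus S in log2 intensity (x axis) against -log10 of the adjusted p (y axis) for each of 18625 probe sets; blue points were called higher in T10, orange points lower, and the dashed line is an adjusted p of 0.05. *Hamp* stands alone at -5.82, and *Mat2a* and *Aldh1b1* have the smallest p-values among the genes named on the plot.

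The largest difference was in *Hamp*, which encodes hepcidin and was 56.5-fold lower in T10 than in S. Its levels in the 5 S rats were 14.79, 12.67, 14.63, 14.21 and 11.91, and in the 5 T10 rats 7.72, 7.73, 7.67, 8.41 and 7.57. Every T10 rat thus lay far below every S rat, and the S rats spread widely (SD 1.28) where the T10 rats did not (SD 0.34). The T10 values stood little above the level that a mean over all arrays had to pass to be tested (7.388). The size of the fall and the small T10 spread therefore rest on dim values. The difference was -5.82 ± 0.87 (adjusted p = 0.000155), and it kept its call without T10 replicates 3, 4 and 5 (-5.91, adjusted p = 0.0178). In the remaining diets *Hamp* averaged 10.08 ± 1.29 in C, 12.20 ± 2.27 in CI, 12.94 ± 2.13 in SI and 7.70 ± 0.25 in T20 (mean ± SD). The low, even level of T10 was therefore found in T20 too, again near 7.388.

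The promoter of *Hamp* is shown because the gene carried the largest difference and because hepcidin is known to be switched on both by iron, through bone morphogenetic protein (BMP) signals, and by inflammation, through STAT3. The 250 bases before its start in RefSeq's GRCr8 annotation, chr1:95300272-95300521 on the minus strand, hold in capitals the BMP response letters GGCGCC, 129 to 124 bases before the start, and a STAT match, TTCTTGGAA, 117 to 109 bases before it.
Hamp: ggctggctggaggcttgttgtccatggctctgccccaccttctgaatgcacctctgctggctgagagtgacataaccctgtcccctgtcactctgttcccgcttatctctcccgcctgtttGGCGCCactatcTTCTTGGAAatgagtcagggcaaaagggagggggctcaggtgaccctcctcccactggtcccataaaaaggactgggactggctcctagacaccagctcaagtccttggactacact
The matches stand 6 bases apart. On either strand GGCGCC was in 8.69% and TTCNNNGAA in 7.67% of 33469 rat promoters of that length. A match is a description of the sequence and not a measured site.

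Among the other iron genes *Tfrc* and *Aco1* were higher in T10. *Tfrc*, the transferrin receptor that brings iron into cells, stood at 11.20, 10.54, 10.44, 10.81 and 11.57 in S and at 13.33, 13.56, 13.99, 11.81 and 11.90 in T10. The groups did not overlap, but T10 replicates 4 and 5 lay just above the highest S rat. *Tfrc* rose by 2.00 ± 0.53 (4.01-fold, adjusted p = 0.0245), and its second probe set by 2.43 ± 0.62 (adjusted p = 0.0189). The call was lost without any one of S replicates 2, 3 and 4 or T10 replicates 1, 2 and 3, at an adjusted p of up to 0.0773. *Aco1*, whose protein in iron shortage binds the messenger of *Tfrc*, rose by 0.63 ± 0.14 (adjusted p = 0.00693).

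Of 15 iron genes tested 3 were called higher and 2 lower (33.3%, beside 4.99% of all genes), with a median difference of 0.0063 beside 0.0067 over all genes. The third higher gene was *Cp* (ceruloplasmin, the plasma ferroxidase), at 0.73 ± 0.19 (adjusted p = 0.0201). A further *Cp* probe set gave 0.73 and was called, a dimmer one gave -0.53 and was not, and the call was lost without S replicate 4, T10 replicate 3 or T10 replicate 4 (adjusted p up to 0.0693). The second lower gene was *Hfe*, part of the iron sensing of hepatocytes, at -0.28 ± 0.08 (adjusted p = 0.0323). With the GAPDH ratio in the model the list had 2 genes higher and 1 lower, and without T10 replicates 3, 4 and 5 it had 0 higher and 1 lower. Only 1 lower iron gene was left when any one of S replicates 2 to 5 or T10 replicates 2 to 5 was omitted. *Id1* (0.05 ± 0.09) and *Smad7* (-0.36 ± 0.16, in the direction of *Hamp*), which respond to BMP signals, were not called. Neither was the ligand gene *Bmp6* at -0.11 ± 0.20. The part of BMP signals in the level of *Hamp* was not tested. *Hmox1*, haem oxygenase, was at 0.01 ± 0.18 and the iron exporter *Slc40a1* at -0.15 ± 0.11. The red cell markers *Hbb*, *Slc4a1* and *Alas2* differed by 0.20 to 0.46, and none was called. The part of blood in the iron genes was not tested.

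Acute phase genes did not move as a block. *A2m*, alpha-2-macroglobulin, a protease inhibitor that rises strongly in inflamed rats, was at 11.73, 13.12, 11.80, 12.63 and 11.98 in S and at 10.33, 9.76, 10.34, 10.36 and 9.16 in T10. The groups were more than 1 unit apart at their nearest values, and *A2m* fell by 2.27 ± 0.37 (4.81-fold, adjusted p = 0.00037). *Orm1*, alpha-1-acid glycoprotein, was at 15.26, 15.23, 14.93, 15.20 and 15.22 in S and at 13.58, 14.55, 14.29, 14.50 and 14.44 in T10, again without overlap. It fell by 0.90 ± 0.16 (adjusted p = 0.000887). With *Hamp* these were the 3 of 25 inflammation-induced genes called lower (20% of the list was called), whereas *Cp* and *Cd14*, a receptor for bacterial lipopolysaccharide, were higher. *Cd14* rose by 1.24 ± 0.21 (adjusted p = 0.000534).

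The rest of the inflammation-induced list lay close to 0, with a median of 0.11 over the 25 genes (0.029 after quantile normalization) and 20 of them above 0. The classical members *Crp* (0.05 ± 0.07), *Hp* (haptoglobin, 0.07 ± 0.06), *Fgb* (fibrinogen, 0.08 ± 0.08), *C3* (0.15 ± 0.08) and *Lcn2* (0.36 ± 0.42) were not called, nor was *Socs3* (0.16 ± 0.15), a target of STAT3. The STAT letters TTCNNNGAA were in 6 of the 21 list promoters in the table (*Fga*, *Fgb*, *Hamp*, *Itih4*, *Serpina3n* and *Steap4*). Of these only *Hamp* was called. Among 9 genes that fall in inflammation, *Serpina6*, the plasma carrier of corticosterone, was higher by 0.81 ± 0.12 (adjusted p = 0.000127) and no other was called. In the casein diet *A2m* stood at 8.49 ± 0.67 (SD) and *Orm1* at 14.08 ± 0.24, so that T10 lay between S and C for *A2m* and near C for *Orm1*.

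**Figure D2:**
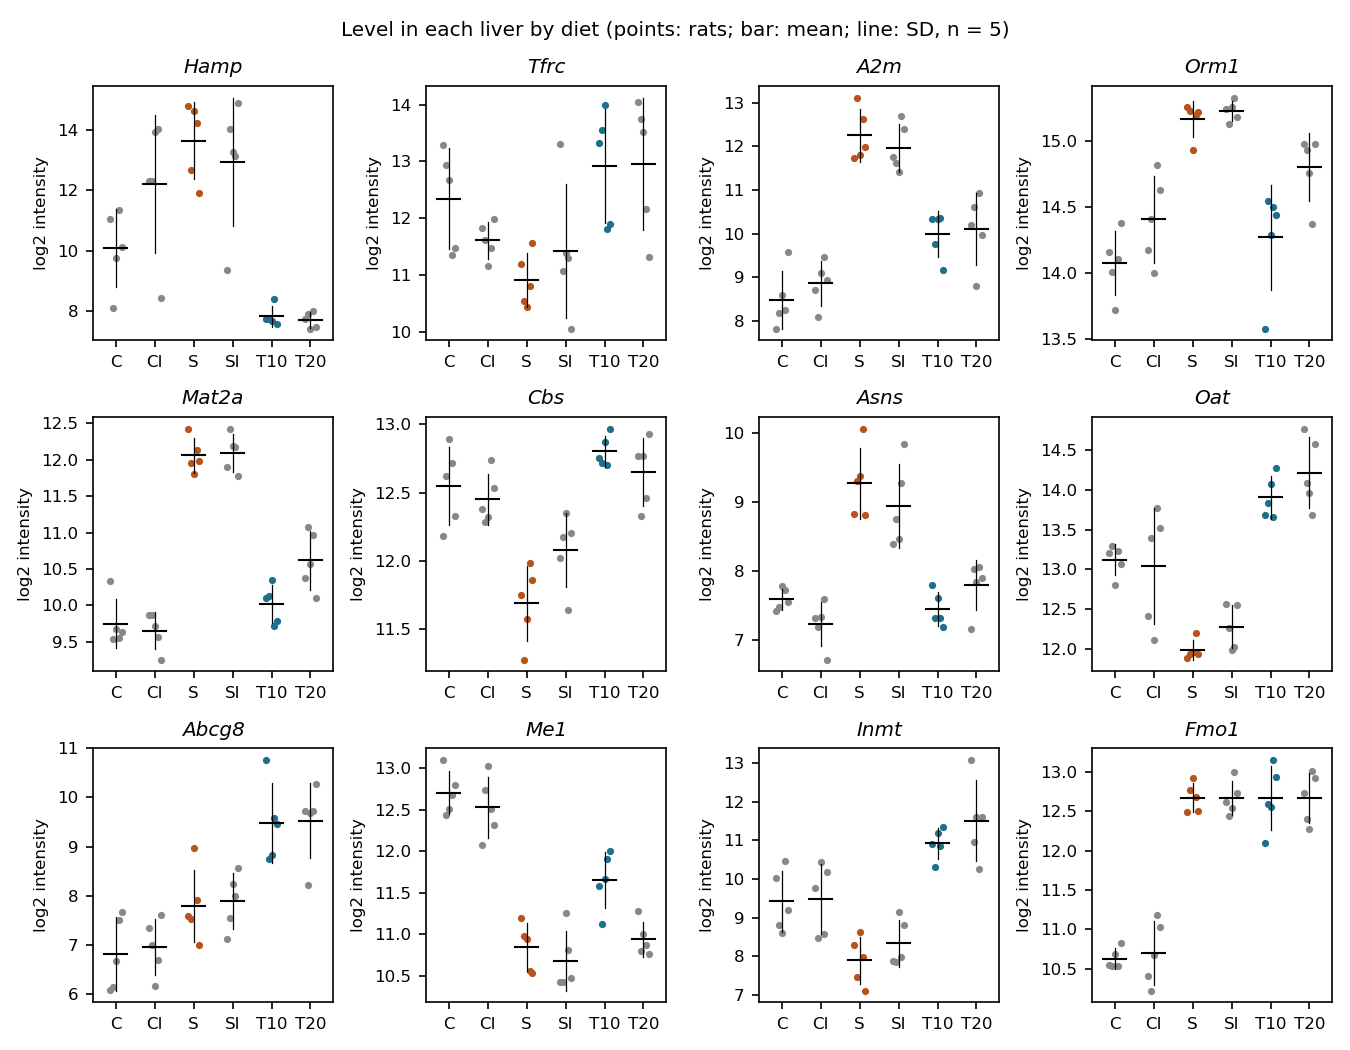
Log2 intensity (y axis) of 12 genes in each liver by diet (x axis; 5 rats a diet, S in orange, T10 in blue), with the mean as a bar and the SD as a line. *Hamp* is lowest in T10 and T20, *Mat2a* and *Asns* are high in S and SI, *Abcg8* and *Inmt* are highest in the tofu diets, and *Fmo1* stands at one level in all 4 diets with soy or tofu.

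Genes of methionine use differed at several steps. *Mat2a*, the methionine adenosyltransferase whose messenger accumulates when S-adenosylmethionine is short, was at 12.43, 11.95, 11.81, 12.13 and 11.98 in S and at 10.10, 10.13, 10.35, 9.72 and 9.78 in T10. The highest T10 rat was more than 1 unit below the lowest S rat. *Mat2a* fell by 2.04 ± 0.18 (4.13-fold, adjusted p = 5.14e-08), and its second probe set by 1.76 ± 0.19. In the other direction *Cbs*, cystathionine beta-synthase, which passes homocysteine toward cysteine, was at 11.75, 11.27, 11.57, 11.98 and 11.86 in S and at 12.75, 12.72, 12.87, 12.70 and 12.97 in T10. It rose by 1.11 ± 0.15 (2.16-fold, adjusted p = 3.56e-05), with no overlap. *Cdo1*, cysteine dioxygenase, rose by 0.40 ± 0.09 (adjusted p = 0.00605), and was not called after quantile normalization (adjusted p = 0.0732). *Odc1*, ornithine decarboxylase of polyamine synthesis, fell by 0.58 ± 0.13 (adjusted p = 0.00589). The taurine transporter gene *Slc6a6* fell by 1.61 ± 0.34 (3.06-fold, adjusted p = 0.00495), and its second probe set by 1.75.

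*Cbs* and *Cdo1* were the genes called higher, and *Mat2a* and *Odc1* those called lower, of 26 tested on the methionine and sulfur list (15.4%), whose median was 0.17. Without S replicate 3 the list had 4 genes higher and without T10 replicate 3 it had 5. *Mat1a*, the liver's own form of the enzyme that *Mat2a* encodes, was at 0.50 ± 0.18 (adjusted p = 0.124), *Gnmt* at 0.48 ± 0.15 and *Bhmt* at -0.18 ± 0.22. By diet *Mat2a* averaged 9.75 ± 0.34 in C, 10.02 ± 0.26 in T10, 10.62 ± 0.40 in T20, 12.06 ± 0.24 in S and 12.09 ± 0.26 in SI (mean ± SD). S and SI stood together at the top of that order and C and T10 near its lower end, with T10 minus C at 0.27 (adjusted p = 0.652).

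Of the 30 ATF4 targets tested, 3 were lower in T10 and 0 higher at an adjusted p below 0.05 in limma (8 and 1 at an unadjusted p below 0.05). *Asns*, asparagine synthetase, was at 8.82, 9.30, 9.37, 10.06 and 8.81 in S and at 7.80, 7.33, 7.62, 7.32 and 7.20 in T10, with no overlap. It fell by 1.82 ± 0.24 (3.52-fold, adjusted p = 3.56e-05). Its T10 values lay near the level that a mean over all arrays had to pass (7.388), so the size of that fall rests on dim values. *Aldh18a1*, which starts proline synthesis from glutamate, fell by 1.03 ± 0.14 (adjusted p = 4.12e-05). *Nupr1*, a stress-induced chromatin protein, fell by 0.66 ± 0.17 (adjusted p = 0.0199). That call was lost without S replicate 4, T10 replicate 1 or T10 replicate 3 (adjusted p up to 0.0648). The rest of the list was not called: the serine synthesis genes *Psat1* and *Phgdh* were both at -0.57, with SEs of 0.23 and 0.26, *Trib3* was at -0.23 ± 0.18, *Ddit3* at -0.14 ± 0.08 and *Atf4* itself at 0.06 ± 0.19. The median of the list was -0.14, with 11 of 30 above 0 and 10% called. The letters TGATGNAA of the composite element that ATF4 and C/EBP proteins bind stood in 7 of its 28 promoters (25.0%, beside 3.4% of all promoters). Of those 7 genes only *Nupr1* was called. The list was made of ATF4 targets, so a surplus of these letters was to be foreseen and is no result of these data. The E-box letters CACGTG stood in 5 of the 28 promoters (17.9%, beside 5.59% of all promoters), *Nupr1* among them. The promoter of *Asns* held 0 matches to the motifs searched.

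Amino acid breakdown was led by *Oat*, ornithine aminotransferase, which turns ornithine toward glutamate in the hepatocytes around the central vein. *Oat* was at 11.89, 11.94, 11.96, 12.20 and 11.94 in S and at 13.68, 13.83, 14.07, 13.66 and 14.28 in T10. The groups were more than 1 unit apart, and *Oat* rose by 1.92 ± 0.23 (3.78-fold, adjusted p = 1.42e-05). It averaged 13.13 in C and 14.21 in T20, and 12.28 in SI. *Aldh1b1*, a mitochondrial aldehyde dehydrogenase, went the other way, from 11.99, 12.13, 11.73, 11.68 and 12.22 in S to 10.12, 9.44, 9.49, 9.89 and 10.31 in T10. It fell by 2.10 ± 0.19 (4.29-fold, adjusted p = 1.11e-07), to below its level in C (10.74 ± 0.22, SD; T10 minus C -0.89, adjusted p = 0.0339).

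On the list of the urea cycle and amino acid breakdown 4 of 41 genes rose and 2 fell (14.6%), with a median of 0.12. *Ass1*, which joins citrulline and aspartate in the urea cycle, rose by 0.52 ± 0.12 (adjusted p = 0.00662). *Hpd*, of tyrosine breakdown, rose by 0.34 ± 0.07 (adjusted p = 0.00449), though not when arrays were set to equal median and spread (adjusted p = 0.115). The others were *Kmo* of tryptophan breakdown, higher by 0.43 ± 0.10, and the lower genes *Sdsl* (-0.64 ± 0.10), a relative of serine dehydratase, and *Bckdk* (-0.60 ± 0.15), the kinase that restrains breakdown of branched-chain amino acids. *Sds* (1.53 ± 0.66) and *Tat* (1.08 ± 0.46) had larger differences that were not called. The remaining urea cycle genes *Cps1* (0.06 ± 0.10), *Otc* (0.12 ± 0.16), *Asl* (0.31 ± 0.12) and *Arg1* (0.20 ± 0.13) were not called.

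**Figure D3:**
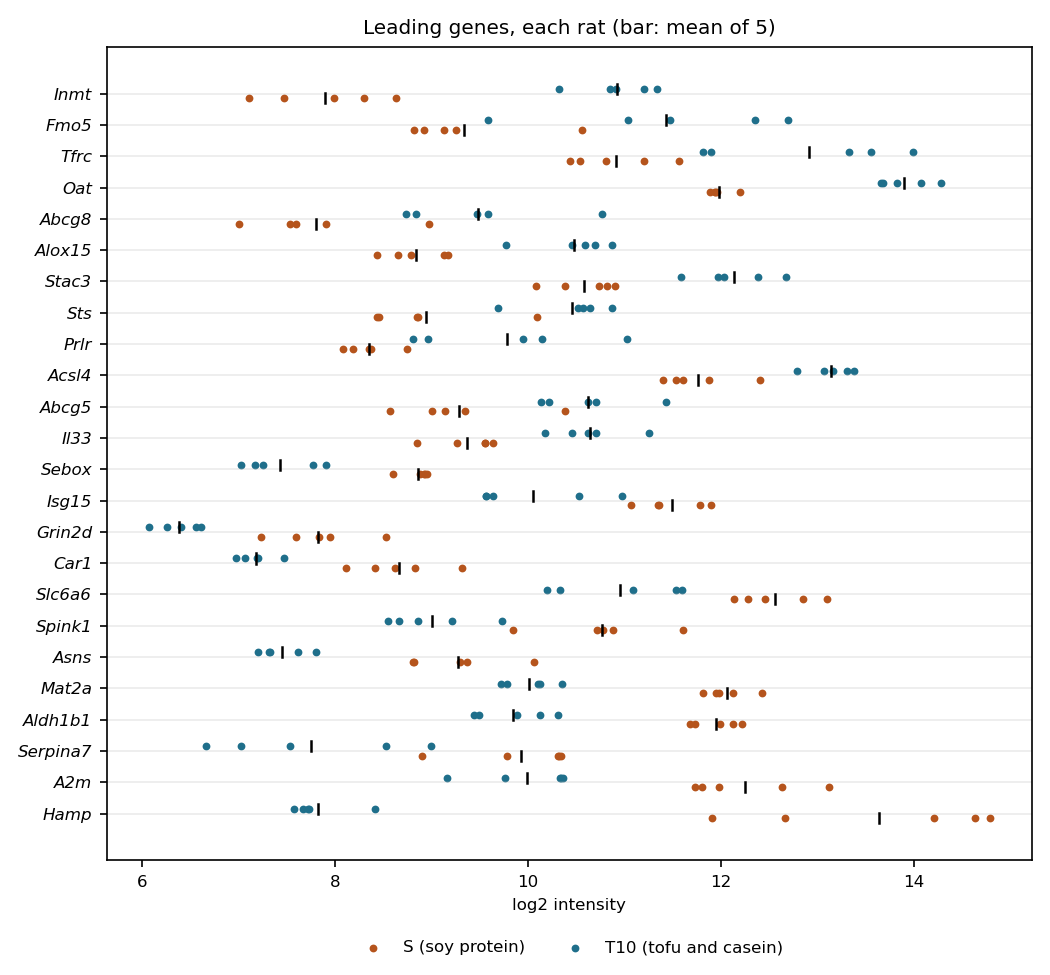
Log2 intensity (x axis) in each rat for the 12 called genes of largest difference in each direction (rows), with S in orange, T10 in blue and the group mean as a bar. The groups touch or overlap in *Serpina7*, *Fmo5*, *Abcg8*, *Abcg5* and *Sts*, and stand apart in the others.

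Both genes of the sterol exporter were higher in T10. *Abcg8* was at 7.60, 7.53, 8.97, 7.91 and 7.0 in S and at 10.77, 8.74, 8.84, 9.59 and 9.47 in T10. S replicate 3 lay inside the T10 range and the other 4 S rats below it. *Abcg8* rose by 1.68 ± 0.42 (3.21-fold, adjusted p = 0.0158). S replicate 5 lay under the level that a mean over all arrays had to pass (7.388), so the size of that rise rests partly on dim values. *Abcg5* was at 9.35, 9.01, 10.38, 9.14 and 8.57 in S and at 11.43, 10.14, 10.22, 10.71 and 10.62 in T10, with the same S rat among the T10 values. It rose by 1.33 ± 0.35 (2.52-fold, adjusted p = 0.0232). Both calls depended on single arrays. *Abcg8* was not called without S replicate 5 or T10 replicate 1 (adjusted p up to 0.0587), nor *Abcg5* without S replicate 2, 4 or 5 or T10 replicate 1 or 4 (up to 0.076). Without T10 replicates 3, 4 and 5 the differences were 1.96 and 1.49 (adjusted p = 0.12 and 0.177). The level of *Abcg8* was 6.82 ± 0.75 in C and 9.53 ± 0.76 in T20 (mean ± SD), so S lay between the casein and tofu diets.

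The genes *Abcg8* and *Abcg5* start back to back, and the stretch between their starts is shown because both genes were higher in T10. It spans 205 bases, chr6:15717731-15717935 in RefSeq's GRCr8, printed on the plus strand.
Abcg8-Abcg5: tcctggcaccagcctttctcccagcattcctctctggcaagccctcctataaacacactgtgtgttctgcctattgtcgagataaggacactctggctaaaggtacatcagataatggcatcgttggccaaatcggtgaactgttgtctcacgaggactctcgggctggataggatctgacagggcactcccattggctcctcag
It held 0 matches to the 4 motifs searched on either strand (TGATGNAA, TTCNNNGAA, GGCGCC and the E-box CACGTG, which is in 5.59% of promoters), so no letters are in capitals. That says only that those letters are not in this window.

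The other 18 genes of sterol export and lipoproteins tested were not called, and the list median was 0.04. *Abca1*, the exporter to high-density lipoprotein, was at -0.60 ± 0.48, *Abcg1* at 0.22 ± 0.14, *Mylip*, which like the exporter pair is a target of the liver X receptor, at 0.36 ± 0.15, and *Apoa1* at -0.09 ± 0.10. In bile acid synthesis *Cyp7a1*, the rate-limiting enzyme, varied widely between rats, from 8.44 to 11.26 in S and from 8.69 to 10.36 in T10, and was not called at -0.58 ± 0.59 (95% interval -1.79 to 0.62). *Baat*, which joins bile acids to taurine or glycine, rose by 0.61 ± 0.10 (adjusted p = 0.000268). *Cyp27a1*, of the alternative bile acid pathway, rose by 0.69 ± 0.18 (adjusted p = 0.0205) with overlapping groups, and lost the call without S replicate 2 or 5 or T10 replicate 4 or 5 (adjusted p up to 0.0711). These were the 2 genes called of 17 (11.8%, beside 4.99% of all genes), and the list median was 0.21.

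Cholesterol synthesis genes were above 0 in 17 of 19 cases with a median of 0.33, and 4 were called higher (21.1%) and 0 lower in limma (6 and 0 at an unadjusted p below 0.05). *Tm7sf2*, a sterol reductase late in the pathway, was at 11.42, 11.59, 12.07, 11.73 and 11.92 in S and at 13.50, 12.70, 12.44, 13.13 and 13.17 in T10. Every T10 rat was above every S rat, and *Tm7sf2* rose by 1.24 ± 0.21 (2.37-fold, adjusted p = 0.000665). *Ebp*, the sterol isomerase, rose by 0.73 ± 0.11 (adjusted p = 0.000141). *Sc5d*, a sterol desaturase, rose by 0.57 ± 0.14 (adjusted p = 0.0133; 0.0503 without T10 replicate 1), with its other probe sets at 0.65 (adjusted p = 0.0527) and 0.49 (adjusted p = 0.177). *Stard4*, a sterol carrier, rose by 0.66 ± 0.16 (adjusted p = 0.0116), but its other probe sets were at -0.04 and 0.11 and were not called. *Sqle* (0.72 ± 0.22, adjusted p = 0.062) and *Lss* (0.78 ± 0.29) were not called, and *Srebf2*, the regulator of the pathway, was at 0.07 ± 0.13. The median of the list was 0.21 without T10 replicate 1, 0.50 with the GAPDH ratio in the model and 0.60 without T10 replicates 3, 4 and 5, when 2 genes were called. In C the called genes stood near T10, with *Tm7sf2* at 12.65 and *Ebp* at 12.75.

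Most genes of fatty acid synthesis did not differ beyond their spread. *Fasn*, fatty acid synthase, was at 13.03, 11.95, 10.91, 12.02 and 11.77 in S and at 12.82, 11.77, 12.19, 11.20 and 11.69 in T10, and both groups averaged 11.94. The difference was -0.00031 ± 0.47, with a 95% interval of -0.96 to 0.95. That interval spans changes of nearly 2-fold in either direction, and a change of that size need not have been called. *Acly* (0.11 ± 0.29), *Acaca* (-0.15 ± 0.18), *Scd* (-0.29 ± 0.28) and the regulator *Srebf1* (-0.13 ± 0.36) overlapped as widely. In C *Fasn* averaged 13.65. *Me1*, malic enzyme, which supplies reducing power for the pathway, was at 11.20, 10.98, 10.95, 10.56 and 10.54 in S and at 11.58, 11.13, 11.67, 11.90 and 12.00 in T10. Only the second T10 rat fell within the S range, and *Me1* rose by 0.81 ± 0.19 (adjusted p = 0.00969; second probe set 0.91 ± 0.27, adjusted p = 0.0482). It stood between the levels of S and C (12.70 ± 0.26, SD), while T20 was at 10.94 ± 0.21. Without T10 replicates 3, 4 and 5 the difference in *Me1* was 0.50 (adjusted p = 0.46).

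On the same list *Acss2* and *Aacs* were called higher. *Acss2*, which activates acetate, rose by 0.69 ± 0.17 (adjusted p = 0.0134; 0.0506 without T10 replicate 1), and *Aacs*, which activates acetoacetate, by 0.73 ± 0.19 (adjusted p = 0.0248). The *Aacs* call was lost without S replicate 5 or T10 replicate 1, 4 or 5 (up to 0.0841). *Agpat2*, of triglyceride assembly, fell by 0.54 ± 0.11 (adjusted p = 0.00413). In all 3 of 26 genes rose and 1 fell (15.4%). *Pnpla3*, a lipid droplet protein, gave 1.33 ± 0.47 from its brightest probe set (adjusted p = 0.119), while another of its probe sets gave 2.12 ± 0.50 and was called (adjusted p = 0.0111) and the remaining one gave 0.89 ± 0.35 and was not (adjusted p = 0.177). Its level of 9.05 in T10 was 7.72 in S and 12.08 in C. *Acsl4*, an acyl-CoA synthetase that prefers arachidonic acid, was at 11.61, 11.53, 11.88, 11.40 and 12.41 in S and at 12.79, 13.07, 13.31, 13.38 and 13.16 in T10. It rose without overlap by 1.38 ± 0.18 (2.60-fold, adjusted p = 3.31e-05), to the level of C (13.21). *Alox15*, a lipoxygenase acting on the same fatty acid, rose by 1.64 ± 0.31 (3.12-fold, adjusted p = 0.00195).

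Fatty acid oxidation genes held 0 members higher and 2 lower of 27 in limma (7.41%; 1 and 5 at an unadjusted p below 0.05), with a median of -0.08. *Vnn1*, pantetheinase, fell by 1.06 ± 0.16 (2.09-fold, adjusted p = 0.000141). *Acot3*, a peroxisomal thioesterase, fell by 0.59 ± 0.15 (adjusted p = 0.0221), a call lost without S replicate 2 or 4 or T10 replicate 2 or 4 (up to 0.0713). *Cpt1a*, the gate of mitochondrial oxidation, was at 0.51 ± 0.29 (95% interval -0.08 to 1.10), *Cyp4a1* at -0.09 ± 0.20 and *Pdk4* at 0.21 ± 0.30, none of them called. Glucose and insulin response genes gave 0 calls in 21 in limma (1 higher at an unadjusted p below 0.05), with a median of 0.02 and a range of -0.41 to 0.34.

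Among enzymes of foreign compounds *Inmt*, a methyltransferase of indole and thiol amines, had the largest rise of any gene. It was at 8.30, 7.47, 8.63, 7.99 and 7.11 in S and at 10.91, 10.32, 11.20, 10.85 and 11.34 in T10. The groups did not overlap, and *Inmt* rose by 3.02 ± 0.45 (8.13-fold, adjusted p = 0.000137). S replicates 2 and 5 lay near or under the level that a mean over all arrays had to pass (7.388). The size of the rise thus rests partly on dim values. *Inmt* averaged 9.43 in C and 11.51 in T20. *Fmo5*, a flavin monooxygenase, rose by 2.09 ± 0.57 (adjusted p = 0.03) with S replicate 3 (10.56) among the T10 values of 9.59 to 12.70. That call was lost without any one of S replicates 1, 2, 4 and 5 or T10 replicates 1, 4 and 5 (up to 0.107), and with the GAPDH ratio in the model (0.0767). Its relative *Fmo1* stood at 12.49, 12.77, 12.92, 12.69 and 12.50 in S and 12.10, 12.59, 12.56, 13.16 and 12.94 in T10. The difference was -0.0049 ± 0.18 (95% interval -0.37 to 0.36), although both diets lay above C, where *Fmo1* averaged 10.63 ± 0.13 (SD).

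The 3 cytochromes P450 called on this list were higher: *Cyp2c7*, a retinoic acid hydroxylase, by 0.77 ± 0.11 (adjusted p = 0.000108), *Cyp1a2* by 0.70 ± 0.16 (adjusted p = 0.0105) and *Cyp3a23-3a1* by 0.65 ± 0.16 (adjusted p = 0.0178). *Ces2c*, a carboxylesterase, fell by 0.67 ± 0.13 (adjusted p = 0.00221). In all 5 of 30 genes on the list rose and 1 fell (median 0.16), which is 20% of the list. Without T10 replicate 4 the number that rose was 3, and without T10 replicate 3 the number that fell was 2. The glutathione transferases *Gsta1* (0.60 ± 0.12, adjusted p = 0.0021) and *Gstt1* (0.71 ± 0.18, adjusted p = 0.0179) rose, the latter not without T10 replicate 3 or 4 (up to 0.0589). *Aldh1a1*, which makes retinoic acid, fell by 1.11 ± 0.31 (adjusted p = 0.0376) and lost its call without any array but S replicate 5 and T10 replicate 4 (up to 0.132). The other 20 of 23 glutathione and NRF2 genes were not called, with *Nqo1* at 0.58 ± 0.31 and *Gclc* at -0.16 ± 0.24.

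The prolactin receptor gene *Prlr* was at 8.19, 8.35, 8.37, 8.75 and 8.08 in S and at 11.03, 8.96, 8.81, 10.15 and 9.95 in T10. The lowest T10 rats lay just above S, and *Prlr* rose by 1.43 ± 0.33 (2.70-fold, adjusted p = 0.0103; second probe set 2.03 ± 0.48, adjusted p = 0.0115). With only the S and T10 arrays in the fit its adjusted p was 0.0545. *Stac3*, a muscle adaptor protein placed among growth hormone-responsive liver genes, rose by 1.55 ± 0.42 (adjusted p = 0.0297), a call lost without S replicate 3 or 4 or T10 replicate 2, 3 or 4 (up to 0.0768). *Ghr*, the growth hormone receptor, rose by 0.48 ± 0.11 (adjusted p = 0.0108), though its dimmer probe set gave 0.07 ± 0.17. The male-biased *Cyp2a2* rose by 0.59 ± 0.13 (adjusted p = 0.00662; 0.0518 with only the S and T10 arrays). With *Serpina6* these were 5 of 25 genes on the growth hormone and sex-biased list (20%, beside 4.99% of all genes). In limma 0 were lower (1 at an unadjusted p below 0.05), and the list median was 0.18. *Socs2* (0.94 ± 0.46), *Igf1* (0.11 ± 0.07) and the male-specific *Cyp2c11* (0.18 ± 0.10) were not called, nor was *Onecut1* at 2.29 ± 0.89 (adjusted p = 0.165), whose S values ran from 6.89 to 11.19.

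In the thyroid list *Serpina7*, thyroxine-binding globulin, was at 10.31, 10.34, 10.32, 8.90 and 9.78 in S and at 6.66, 7.53, 8.99, 8.53 and 7.03 in T10. T10 replicate 3 lay above S replicate 4, and the other values stood apart. *Serpina7* fell by 2.18 ± 0.53 (4.53-fold, adjusted p = 0.0131), and it was lower still in C (6.64 ± 0.58, SD). T10 replicates 1 and 5 lay under the level that a mean over all arrays had to pass (7.388). The size of the fall thus rests partly on dim values. *Thrb*, a thyroid hormone receptor, rose by 0.42 ± 0.10 (adjusted p = 0.0105), with its other probe sets at 0.25 and 0.35 and not called. *Slc16a10*, a transporter of aromatic amino acids and thyroid hormone, rose by 1.03 ± 0.26 (adjusted p = 0.0167), but not without T10 replicate 4 or 5 (up to 0.0726). With *Me1* 3 of 13 genes rose and 1 fell (30.8%, beside 4.99% of all genes). The thyroid-responsive *Thrsp* (-0.04 ± 0.23), *Dio1* (-0.14 ± 0.25) and *Gpd2* (-0.13 ± 0.18) were not called. The list median of 0.09 turned to -0.01 after quantile normalization.

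Cell cycle genes were below 0 in 27 of 28 cases, with a median of -0.33, and 3 were called lower (10.7%) and 0 higher in limma (9 and 0 at an unadjusted p below 0.05). *Ccnd1*, cyclin D1, which opens the cycle, was at 11.88, 11.39, 11.45, 11.78 and 11.00 in S and at 10.68, 10.27, 10.61, 10.31 and 10.33 in T10. The groups did not overlap, and *Ccnd1* fell by 1.06 ± 0.18 (2.09-fold, adjusted p = 0.000693), with its other probe sets at -1.11 and -1.04. *Tyms*, thymidylate synthase, fell by 0.62 ± 0.16 (adjusted p = 0.0213; up to 0.0804 without S replicate 1 or 4 or T10 replicate 1 or 5). *Stmn1*, a microtubule protein, fell by 0.61 ± 0.16 (adjusted p = 0.0274; up to 0.0975 without S replicate 2, 4 or 5 or T10 replicate 3, 4 or 5). The mitotic genes *Ccnb1* (-0.70 ± 0.33), *Cdk1* (-0.37 ± 0.32) and *Top2a* (-0.33 ± 0.23) were not called. Without T10 replicates 3, 4 and 5 the list median was -0.09, and with the GAPDH ratio in the model it was -0.21.

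**Figure D4:**
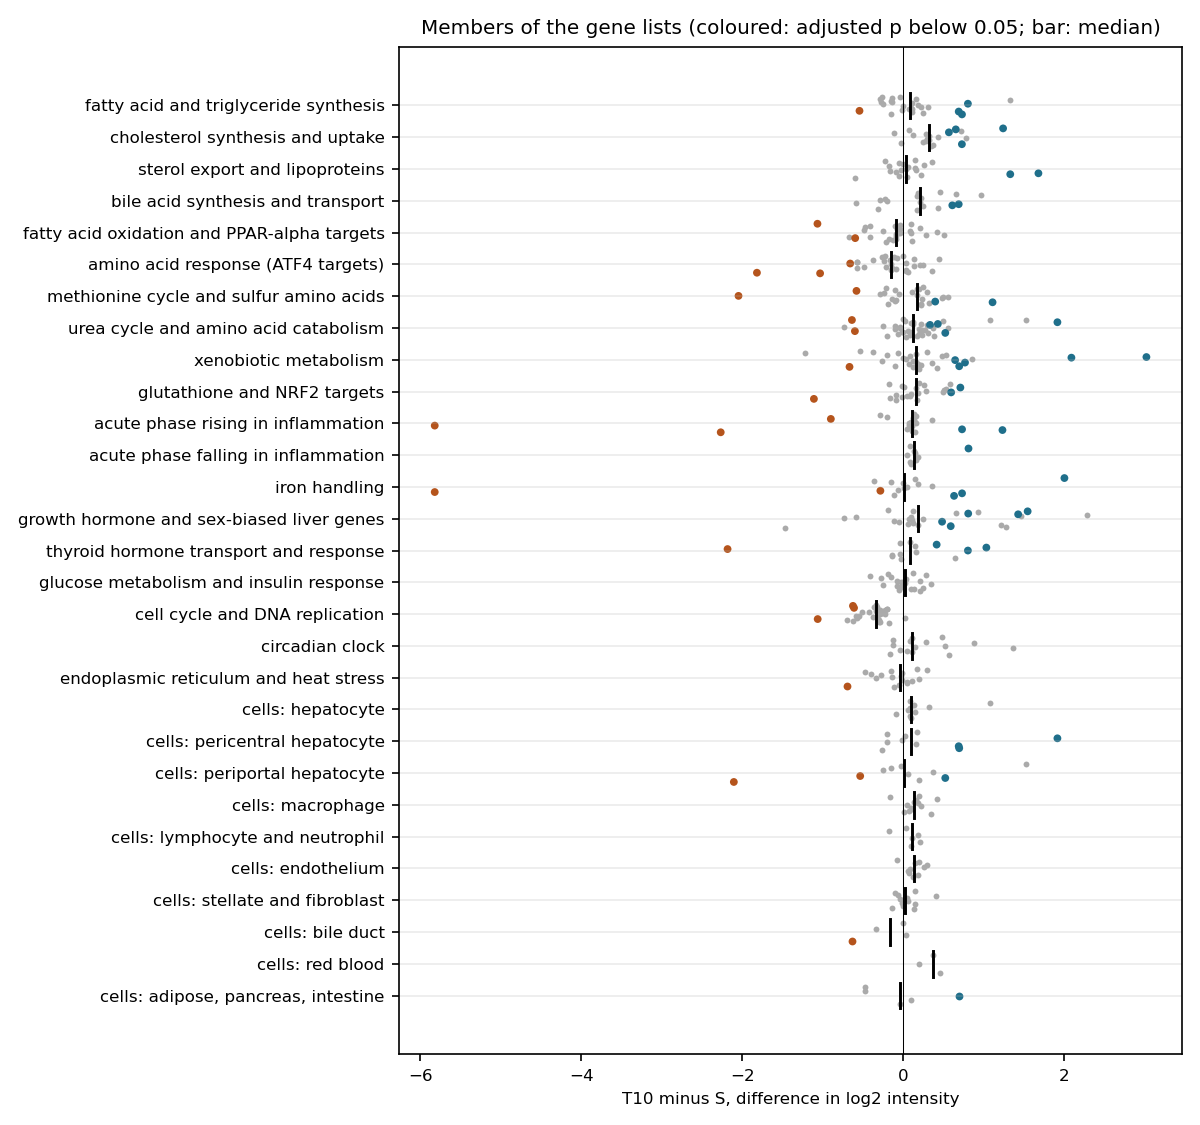
Difference T10 minus S in log2 intensity (x axis) of each tested gene of 29 lists (rows), with called genes in blue (higher in T10) or orange (lower) and the list median as a bar. Medians of most metabolic lists lie near 0, cholesterol synthesis reaches 0.33, the 3 red blood markers 0.38 and cell cycle genes -0.33. The share of called genes runs from 0% to 33.3% (iron handling).

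The remaining leading genes fell into no list. *Il33*, an interleukin released by damaged cells, rose by 1.28 ± 0.23 (adjusted p = 0.000874), with 1.23 from its second probe set. *Sts*, steroid sulfatase, rose by 1.52 ± 0.30 (adjusted p = 0.00221) with S replicate 3 among the T10 values. On the lower side *Isg15*, an interferon-induced ubiquitin-like protein, fell by 1.44 ± 0.29 (adjusted p = 0.00279). *Car1*, a carbonic anhydrase, fell by 1.48 ± 0.28 (adjusted p = 0.00155), to a T10 mean of 7.18. *Grin2d*, a glutamate receptor subunit, fell by 1.45 ± 0.31 (adjusted p = 0.00571), to a T10 mean of 6.38. Both T10 means lie under the level that a mean over all arrays had to pass (7.388), as does that of *Tyms* (7.36), so the sizes of these 3 falls rest on dim values. The homeobox gene *Sebox* fell by 1.43 ± 0.23 (adjusted p = 0.000303). Its T10 values of 7.77, 7.25, 7.91, 7.03 and 7.17 were also near 7.388, so the size of that fall rests on dim values. *Spink1*, a trypsin inhibitor, fell by 1.76 ± 0.47 (adjusted p = 0.0275), with 1 of its other probe sets called at -1.85 and 1 not called at -0.35. The *Spink1* call was lost without any one of S replicates 1, 2 and 4 or T10 replicates 1, 4 and 5 (up to 0.0858).

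A look through the called genes, after their values were seen, showed 3 further families with lower members, which are described without a test. Of 73 genes of the mitochondrial ribosome 14 were called lower and 0 higher in limma (37 and 0 at an unadjusted p below 0.05). Of all genes 2.92% were called lower. In this family 57 were below 0 and the median was -0.22, where 5528 of all 10699 genes were above 0. *Mrps34* was at -0.52 ± 0.10, *Mrps25* at -0.48 ± 0.08 and *Mrpl17* at -0.47 ± 0.10. The number called was 4 after setting equal median and spread, 8 with the GAPDH ratio in the model and 1 without T10 replicates 3, 4 and 5. It was 7 without S replicate 1, S replicate 2 or T10 replicate 5, 6 without S replicate 4 and 9 without T10 replicate 4. Interferon-stimulated genes had 5 of 25 called lower, *Isg15*, *Oasl*, *Mx2*, *Shfl* and *Lgals3bp* (2.92% of all genes were lower), and a median of -0.30. The number called was 3 after median centring, 2 after setting equal median and spread, 4 with the GAPDH ratio in the model and 0 without T10 replicates 3, 4 and 5. It was 3 without S replicate 1, S replicate 3 or T10 replicate 2, 2 without S replicate 2 or T10 replicate 4, and 1 without T10 replicate 5. Of 12 subunits of oligosaccharyltransferase, the enzyme that attaches sugar chains to new proteins, *Tusc3* (-0.99 ± 0.13, adjusted p = 3.56e-05) and *Ddost* (-0.63 ± 0.11, adjusted p = 0.000601) were called lower. That is 2 of 12, beside 2.92% of all genes.

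In the stress and clock lists the share of genes called was near or under that of all genes (4.99%). Of 18 endoplasmic reticulum and heat stress genes *Creld2* alone was called (5.56%), at -0.70 ± 0.20 (adjusted p = 0.0469). That call needed all arrays but S replicates 2 and 5 and T10 replicate 1 (up to 0.154 without one of the others), and it was not made after median centring (0.058). *Hspa5*, the main chaperone of that compartment, was at -0.33 ± 0.19. At an unadjusted p below 0.05 limma had 1 of the 18 genes higher and 4 lower. Of 15 clock genes 0 were called in limma (1 higher at an unadjusted p below 0.05). Their median was 0.11, with 11 of 15 above 0. *Dbp* had a large but uncertain difference of 1.37 ± 0.69, and *Bmal1* was at -0.17 ± 0.25.

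Markers of cell types in the liver were read for the same arrays, because in whole tissue fewer cells of a type and less RNA per cell cannot be told apart. The labelled tissue was borne out, with the 10 hepatocyte markers averaging 15.09 to 15.21 in the S arrays and 15.25 to 15.51 in the T10 arrays. These ranges did not overlap, though none of the 10 was called (4 higher at an unadjusted p below 0.05) and their median difference was 0.10 (0.02 after quantile normalization). Macrophage markers (13 tested, 0 called, median 0.13, mean levels 10.57 to 10.92 in S and 10.67 to 11.03 in T10), endothelial (10, 0 called, 0.13) and stellate markers (12, 0 called, 0.02) overlapped between the diets in their mean level. At an unadjusted p below 0.05 limma had 2 macrophage markers, 1 endothelial and 1 stellate marker higher and 0 lower. Lymphocyte and neutrophil markers were tested for 6 of 13 genes on the array, with 0 called at either level of p. Of 4 bile duct markers *Epcam* fell by 0.63 ± 0.14 (adjusted p = 0.00561; 0.0543 with only the S and T10 arrays). *Krt8* was at -0.33 ± 0.14 (adjusted p = 0.227), *Spp1* at 0.00086 ± 0.16 and *Krt19* at 0.04 ± 0.14. Of 5 adipose, pancreas and intestine markers *Cela1* rose by 0.69 ± 0.19 (adjusted p = 0.0277), but not without S replicate 2, 4 or 5 or T10 replicate 2 or 3 (up to 0.0911). The other 4 were not called, with *Cel* at 0.10 ± 0.12, *Cdx2* at -0.04 ± 0.25, *Fabp4* at -0.47 ± 0.25 and *Fabp2* at -0.48 ± 0.22, and the list median was -0.04.

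By zone of the liver lobule, the pericentral list had *Oat*, *Cyp1a2* and *Cyp27a1* higher among 10 (30%, beside 4.99% of all genes). The array means of that list were 11.26 to 11.71 in S and 11.70 to 11.87 in T10. *Glul* (-0.20 ± 0.12), *Cyp2e1* (0.17 ± 0.13) and *Axin2* (-0.26 ± 0.18), which define that zone, were not called. The periportal list had *Ass1* higher and *Aldh1b1* and *Cdh1* (E-cadherin, -0.53 ± 0.11, adjusted p = 0.00484) lower (30% called), with a median of 0.02 that was -0.04 after quantile normalization. Without T10 replicate 2 it had 2 genes higher. The part of zonation or of cell numbers in the results was not tested.

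Of the 66 called genes named by the rule, all 66 kept their sign in every setting run in which they were tested. The settings reused the arrays on which these genes were called, so the kept sign is no independent support. The call itself was kept by 46 under all 10 single-array omissions, and by 24 under every alternative in which they were tested. Without T10 replicates 3, 4 and 5, 27 of the 66 were still called. They were *A2m*, *Acsl4*, *Aldh18a1*, *Aldh1a1*, *Aldh1b1*, *Asns*, *Baat*, *Cbs*, *Ccnd1*, *Cd14*, *Ces2c*, *Cyp2c7*, *Ebp*, *Epcam*, *Hamp*, *Hpd*, *Il33*, *Inmt*, *Mat2a*, *Oat*, *Orm1*, *Sdsl*, *Sebox*, *Serpina6*, *Serpina7*, *Tm7sf2* and *Vnn1*. The ratio of the difference without those arrays to the one with them had a median of 0.974 over the 66 genes and ran from 0.538 to 1.59. Without them the number of genes called higher was 0 on the sterol export, fatty acid synthesis and thyroid lists and 1 on the growth hormone list. With the GAPDH ratio as a covariate 62 of the 66 were called. With only the S and T10 arrays in the fit 56 were called. The 10 lost were *Aldh1a1*, *Cdo1*, *Creld2*, *Cyp27a1*, *Cyp2a2*, *Epcam*, *Fmo5*, *Prlr*, *Slc16a10* and *Stmn1*.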

How the data were processed

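The authors deposited linear intensities, 1 for each probe set of an array, which per the labels were normalized by the SuperNORM service; its way back to a linear scale is not stated in the sources used. Values under 16 were set to 16 before the log2 transform. Controls (57 of 31099 probe sets) were left out, as were probe sets with a mean at or below the 40th percentile (7.388 on the log2 scale). Symbols came from the platform annotation (20832 probe sets with 1, 436 with several, 9831 with none); 20764 matched a current gene record, and only probe sets with 1 symbol were named. A gene was read from its brightest tested probe set.

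limma 3.58.1 (R 4.3.3) fitted a mean per diet to the 30 arrays, with a variance trend, 24 residual degrees of freedom and two-sided tests. The scripts were tested on simulated data. Genes named were the 12 called genes of largest difference in each direction, up to 4 called members of smallest p per list, called cell type markers and a fixed set of 20; *Hfe*, *Kmo*, *Bckdk*, *Cyp3a23-3a1*, the 3 families and the uncalled list members were picked after their values were seen. Members and lists were chosen with earlier results of these data known. Of 625 list entries 557 were on the array and 471 distinct genes passed the filter. Promoters came from RefSeq's GRCr8 table, which held 58 of the 77 named genes. Same-numbered S and T10 arrays did not deviate together (correlations of -0.28 to 0.1), so the main fit did not pair the rats. Whether same-numbered arrays of the other diets share a deviation was not tested. The correlations are over all probe sets, so single genes could still follow the replicate number. *Tfrc* in replicates 1 to 5 was at 13.29, 12.94, 12.68, 11.35 and 11.47 in C, in the order of T10. In CI it was at 11.83, 11.62, 11.15, 11.47 and 11.99, without that order. Figures were drawn with matplotlib 3.10.9.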

Additional observations from a re-analysis of the deposited data

Results flagged for a closer look

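In 10 of 154 groups of 5 arrays (a named gene in S or in T10), the highest or lowest array stood far from the other 4 by Dixon's test; chance gives about 5% of groups. S replicate 3 was that array for 5 genes. It was high for *Sts* (10.09, others 8.43 to 8.86), *Fmo5* (10.56, others 8.82 to 9.25) and *Aldh1a1* (13.23, others 12.10 to 12.41), and low for *Orm1* (14.93, others 15.20 to 15.26) and *Sebox* (8.60, others 8.88 to 8.95). S replicate 4 was high for *Oat* (12.20, others 11.89 to 11.96). T10 replicate 1 was low for *Orm1* (13.58, others 14.29 to 14.55) and high for *Sc5d* (13.58, others 12.94 to 13.08). T10 replicate 3 was low for *Ass1* (15.05, others 15.36 to 15.46), and T10 replicate 4 was high for *Hamp* (8.41, others 7.57 to 7.73). None of these arrays reversed the sign of its gene's difference when it was left out.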

How the results depend on the processing

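The count of 789 called probe sets ran from 547 to 746 with each S or T10 array left out in turn (237 to 355 higher, 297 to 413 lower). It was 164 without T10 replicates 3, 4 and 5 (70 higher, 94 lower) and 336 at an adjusted p below 0.01 (147 higher, 189 lower). With the replicate number as a block 1034 were called (467 higher, 567 lower), more than without it. Same-numbered S and T10 rats did not deviate together (correlations of -0.28 to 0.1). The other diets and single genes were not compared in that way. The block ended no call of the 66 named genes. Quantile normalization gave 890, median centring 663, equal median and spread 662, array weights 1100, and only the S and T10 arrays 559. The GAPDH ratio as a covariate, added after seeing the data, gave 710. Of 1916 gene values compared with the main ones, 151 lost the call, 2 gained it and 24 changed sign, none of the 24 in a called gene. *Fasn* was at 0.017 with equal median and spread, 0.36 without T10 replicates 3, 4 and 5, 0.26 with the GAPDH ratio, and -0.26 to 0.27 over single arrays left out. *Fmo1* was at 0.030 and 0.066 with equal spread and array weights, and -0.13 to 0.14 over single arrays left out. *Acly* was at -0.018 with array weights and -0.052 to 0.31 over single arrays left out. *Srebf1* was at 0.17 without T10 replicates 3, 4 and 5, 0.012 with the GAPDH ratio, and -0.41 to 0.070 over single arrays left out. *Pnpla3* was called with the block (adjusted p = 0.0464) and from the mean of its probe sets (adjusted p = 0.0368). The causes were not tested. Of 1600 list counts 1444 stayed within 1.5 times, 137 fell by more and 19 rose by more. Dim probe sets under the filter were not tested, and 5 arrays a diet limit small differences.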
